A study of Mus musculus with 6 samples.

Results

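Actins and tropomyosins build the thin filament, the actin cable along which myosin pulls in heart muscle, and the actin cytoskeleton of every other cell. Of 8 genes of these families, Acta1, Actc1, Actb, Actg1, Tpm1, Tpm2, Tpm3 and Tpm4, 7 were measured by a probe set of their own, among 19938 such genes on the array. Each gene was represented by the probe set that carried only its symbol and had the highest mean over all mice. Actg1 had no such probe set and is described below only through probe sets that it shares with Actb. The RNA came from cardiac ventricles at postnatal day 17 of 3 miR-499 transgenic mice of line 17 (TG-17) and 3 wild-type (WT) littermates, each on 1 Affymetrix Mouse Gene 1.0 ST array. TG-17 mice carry a fragment around the mouse pre-miR-499 under the alpha-myosin heavy chain (Myh6) promoter, which is active in cardiomyocytes. They are 1 transgenic line, made by injection of FVB/NCrl embryos. The study found their hearts of ordinary appearance without stress but with slightly enlarged cardiomyocytes. The wild-type littermates carry no transgene. The values are log2 expression values made with RMA, which corrects background, normalizes between arrays and summarises the probes of each set.

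In the adult ventricle of the mouse Actc1, cardiac alpha-actin, is the main sarcomeric actin, while Acta1, skeletal muscle alpha-actin, is expressed in the fetal and neonatal heart and again in hypertrophy. Actb and Actg1 encode the cytoplasmic beta- and gamma-actins found in all cells. Tropomyosins are coiled coils that lie along the actin filament and, with the troponins, let calcium switch it on. Tpm1 gives the alpha-tropomyosin of the heart and Tpm2 the beta form of skeletal and smooth muscle. Tpm3 and Tpm4 give, among other forms, short ones of the cytoskeleton. The tissue was whole ventricle, so that fewer cells of a type and less RNA per cell cannot be told apart.

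The comparison asked which of these isoforms differ when miR-499 is raised. The mature microRNA is shown first because the groups are separated by a transgene that carries its precursor. Its sequence is taken from RefSeq (GRCm38.p6, chr2:155622893-155622913, plus strand), with the seed, bases 2 to 8, in capitals.
mmu-miR-499-5p: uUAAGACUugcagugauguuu
The probe set of its gene, Mir499, read 9.31, 9.33 and 8.87 in the 3 TG-17 mice and 5.48, 5.34 and 5.68 in the 3 WT mice. All TG-17 mice lay far above all WT mice, as the labels of the groups say. The WT values lay near the lower quartile of the arrays (5.51 to 5.57). Whether this probe set reads the mature microRNA was not tested.

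The promoters of the 2 sarcomeric actin genes are shown because these close relatives gave different results. They cover 250 bases before to 50 bases after the RefSeq start (GRCm38.p6, minus strand), Acta1 at chr8:123894726-123895025 and Actc1 at chr2:114052826-114053125. Capitals mark the CArG box, the binding motif of serum response factor (Srf), the motif CATTCC (MCAT, read by TEAD factors) and TATAAA, each searched on both strands. A CArG box was counted only as an exact CCWWWWWWGG, where W is A or T. Near matches were not counted in any window. None of the marked motifs overlap.
Acta1: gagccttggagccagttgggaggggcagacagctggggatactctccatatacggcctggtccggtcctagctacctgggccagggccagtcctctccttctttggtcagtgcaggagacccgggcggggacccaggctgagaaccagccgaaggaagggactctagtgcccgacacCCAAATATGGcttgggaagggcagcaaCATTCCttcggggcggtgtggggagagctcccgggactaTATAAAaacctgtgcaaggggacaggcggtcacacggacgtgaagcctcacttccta
Actc1: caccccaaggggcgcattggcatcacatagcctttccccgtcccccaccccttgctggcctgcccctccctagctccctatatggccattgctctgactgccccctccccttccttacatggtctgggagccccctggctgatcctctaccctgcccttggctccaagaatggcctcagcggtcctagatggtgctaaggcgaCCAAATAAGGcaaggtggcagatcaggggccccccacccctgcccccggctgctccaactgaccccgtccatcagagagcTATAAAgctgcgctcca
Both held 1 CArG box, which began at position -73 from the start in Acta1 and at -47 in Actc1. Of all 32851 promoter windows of this length 1.63% held a CArG box, and the window of Actg1 held one too, beginning at -90. CATTCC was found in the Acta1 window, in 1 place, and not in the Actc1 window, and 14.7% of all windows held it. TATAAA was found in both, beginning at -7 in Acta1 and at 34, past the RefSeq start, in Actc1, and in 13.6% of all windows. The windows of Tpm1, Tpm2, Tpm3 and Tpm4 held no CArG box, that of Tpm1 held 1 CATTCC, and Actb was not matched in the table used. These matches describe the letters and not binding.

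Acta1 rose in TG-17 ventricles and was the only one of the 7 genes to pass the test. Its log2 values were 12.88, 12.76 and 12.85 in the 3 TG-17 mice, against 12.15, 12.12 and 12.18 in the 3 WT mice. The groups were far apart, and the lowest TG-17 mouse lay well above the highest WT mouse. The mean was 12.83 ± 0.063 in TG-17 and 12.15 ± 0.027 in WT (SD, n = 3 each), a difference of 0.68 on the log2 scale (standard error 0.055). This is a 1.60-fold rise with a 95% interval of 1.46 to 1.76. Its B from limma, the log odds that a probe set changed when 0.01 of all probe sets are assumed to change, was 2.82. A gene is called here at B above 0, the less strict of the study's cut-offs, which 0.366% of all probe sets passed in either direction and 0.155% as higher in TG-17. Among genes, Acta1 had the smallest p but 2, and its rise was at rank 5 of the 26 genes that were higher at B above 0. It did not pass the stricter cut-off (adjusted p = 0.0785 from limma, with Benjamini-Hochberg adjustment over all probe sets), which 0.00562% of all probe sets passed, and no other member did. The study interrogated fewer transcripts than the 35556 probe sets tested here, so the cut-offs are the study's but the set tested is not.

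Actc1, the other sarcomeric actin, did not pass. It read 14.34, 14.36 and 14.33 in TG-17 mice and 14.35, 14.33 and 14.38 in WT mice, and the groups overlapped. The log2 difference was -0.013 (standard error 0.047, adjusted p = 0.914 from limma), with a 95% interval of -0.127 to 0.101. A change of the size seen in Acta1 lies outside this interval. The value is bright, since the highest probe set of any array was at 14.83 to 15.20, and whether its signal is compressed there was not tested.

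**Figure D1:**
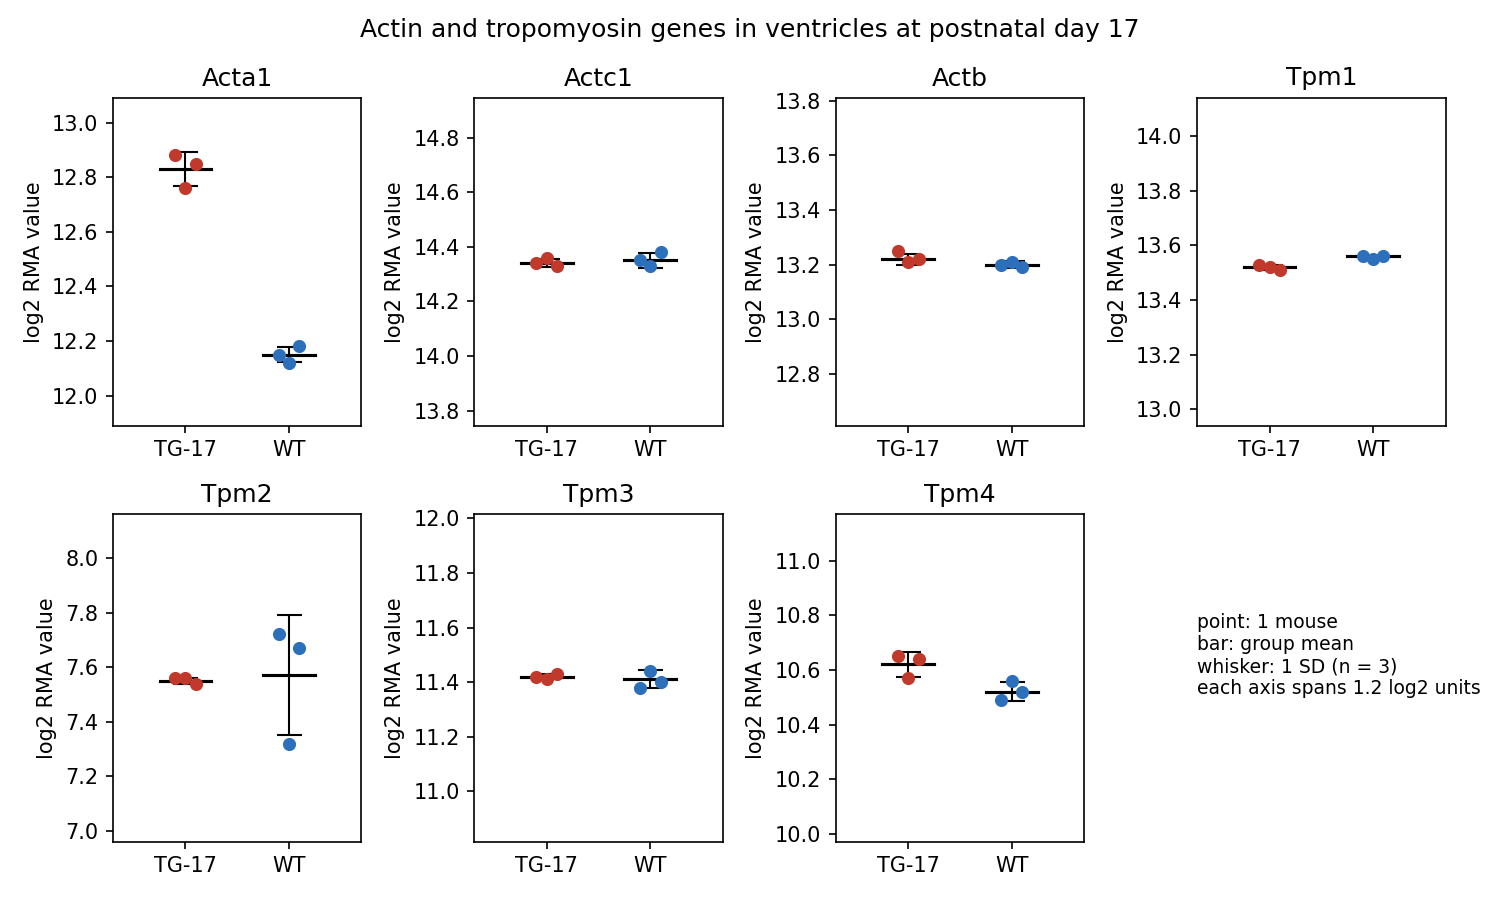
Log2 RMA values of the 7 genes in the ventricles of 3 TG-17 (red, left) and 3 WT (blue, right) mice at postnatal day 17. Each point is 1 mouse, the bar is the group mean, the whiskers are 1 SD, and every vertical axis spans 1.2 log2 units. Acta1 is the only gene with a wide gap between the groups, and Tpm2 has 1 low WT mouse at 7.32.

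Since Acta1 and Actc1 were read on the same arrays, their difference was taken within each mouse. A shift of this difference shows that the 2 signals moved unequally, where compression of the bright Actc1 signal was not tested, while its level has no meaning, because probe sets differ in brightness. Acta1 minus Actc1 was -1.46, -1.60 and -1.48 in TG-17 mice and -2.20, -2.21 and -2.21 in WT mice. The shift was 0.70 on the log2 scale, or 1.62-fold, with an SD of 0.075 in TG-17 and 0.0083 in WT. All TG-17 mice lay above all WT mice, and the two-sided exact permutation test gave p = 0.10, the smallest p that 3 against 3 mice allow (0.15 after Benjamini-Hochberg adjustment over the 3 pairs tested).

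The cytoplasmic actins did not pass the test. Actb read 13.25, 13.21 and 13.22 in TG-17 mice and 13.20, 13.21 and 13.19 in WT mice. The values differed by less than 0.1 among all mice and overlapped between the groups, with a log2 difference of 0.023 (standard error 0.046, 95% interval -0.0888 to 0.135). For Actg1, 4 probe sets carry the symbols of both Actg1 and Actb and cannot be given to either. The 1 of these whose neighbours in the numbering of the array lie on chromosome 11, as Actg1 does, read 12.58, 12.69 and 12.67 in TG-17 mice and 12.66, 12.63 and 12.66 in WT mice. Its log2 difference was 0.00013 (standard error 0.052). The other 3 have their neighbours on chromosomes 4, 8 and 13. Over the 4 the log2 differences were -0.0041 to 0.015, and the sets at chromosomes 4, 11 and 13 differed from each other by at most 0.027 in any mouse. Actin genes are nearly identical in their coding parts, and how far each probe set reads the other actins was not tested.

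The tropomyosins gave no call at B above 0. Tpm1, which gives the main tropomyosin of the ventricle, read 13.53, 13.52 and 13.51 in TG-17 mice and 13.56, 13.55 and 13.56 in WT mice. The groups did not overlap, but the log2 difference was only -0.038 with a standard error of 0.045, and a 95% interval of -0.147 to 0.0713 (adjusted p = 0.711 from limma). The SD was 0.01 in TG-17 and 0.0029 in WT, so this standard error rests mainly on the variance shared over all probe sets. Without moderation the t test gave Tpm1 an unadjusted p of 0.00378 and an adjusted p of 0.213. The direction turned to 0.013 when each array was centred on its median. Tpm2 was the dimmest of the 7 genes and the most variable, with 7.56, 7.56 and 7.54 in TG-17 mice and 7.72, 7.32 and 7.67 in WT mice. Its SD was 0.011 in TG-17 and 0.22 in WT, and its 95% interval of -0.289 to 0.249 was the widest of the 7. WT replicate 2 was the low mouse, and without it the log2 difference was -0.145 in place of -0.020.

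Tpm4 had the largest difference of the tropomyosins in the values as deposited. It read 10.65, 10.57 and 10.64 in TG-17 mice and 10.49, 10.56 and 10.52 in WT mice, so that the groups did not overlap, although the lowest TG-17 and the highest WT mouse nearly touched. The log2 difference was 0.099 (standard error 0.052, unadjusted p = 0.104, adjusted p = 0.412 from limma). A second, brighter probe set carries Tpm4 together with Gm7809, a predicted gene, and has its neighbours on chromosome 17, while Tpm4 lies on chromosome 8. It read 11.77, 11.80 and 11.80 in TG-17 mice and 11.64, 11.64 and 11.68 in WT mice. Its difference was 0.14 (standard error 0.046, unadjusted p = 0.0234, adjusted p = 0.271 from limma). Of the 7 genes 3 had groups that did not overlap, which are Acta1 and Tpm4 with TG-17 above WT and Tpm1 with TG-17 below WT in the values as deposited. Over all probe sets 23.3% had groups that did not overlap.

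Tpm3 was read by 4 probe sets with no other symbol. The brightest, chosen by the rule, read 11.42, 11.41 and 11.43 in TG-17 mice and 11.38, 11.44 and 11.40 in WT mice, a log2 difference of 0.014 (standard error 0.047). All 20 of the nearest named probe sets in the numbering, 10 on each side, belong to genes on chromosome 14, while Tpm3 lies on chromosome 3. The numbering follows the genome in general, with 94.3% of consecutive named probe sets on the same chromosome. The only Tpm3 probe set whose 20 neighbours lie on chromosome 3 was dimmer, at 9.66, 9.80 and 9.74 in TG-17 mice and 9.78, 9.69 and 9.83 in WT mice. Its log2 difference was -0.034 (standard error 0.065), and that of the remaining 2, with neighbours on chromosome 7, was -0.0087 and -0.0098. None of the 4 passed, so the result for Tpm3 does not turn on this choice, and whether the brightest probe set sits at the gene itself was not tested.

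**Figure D2:**
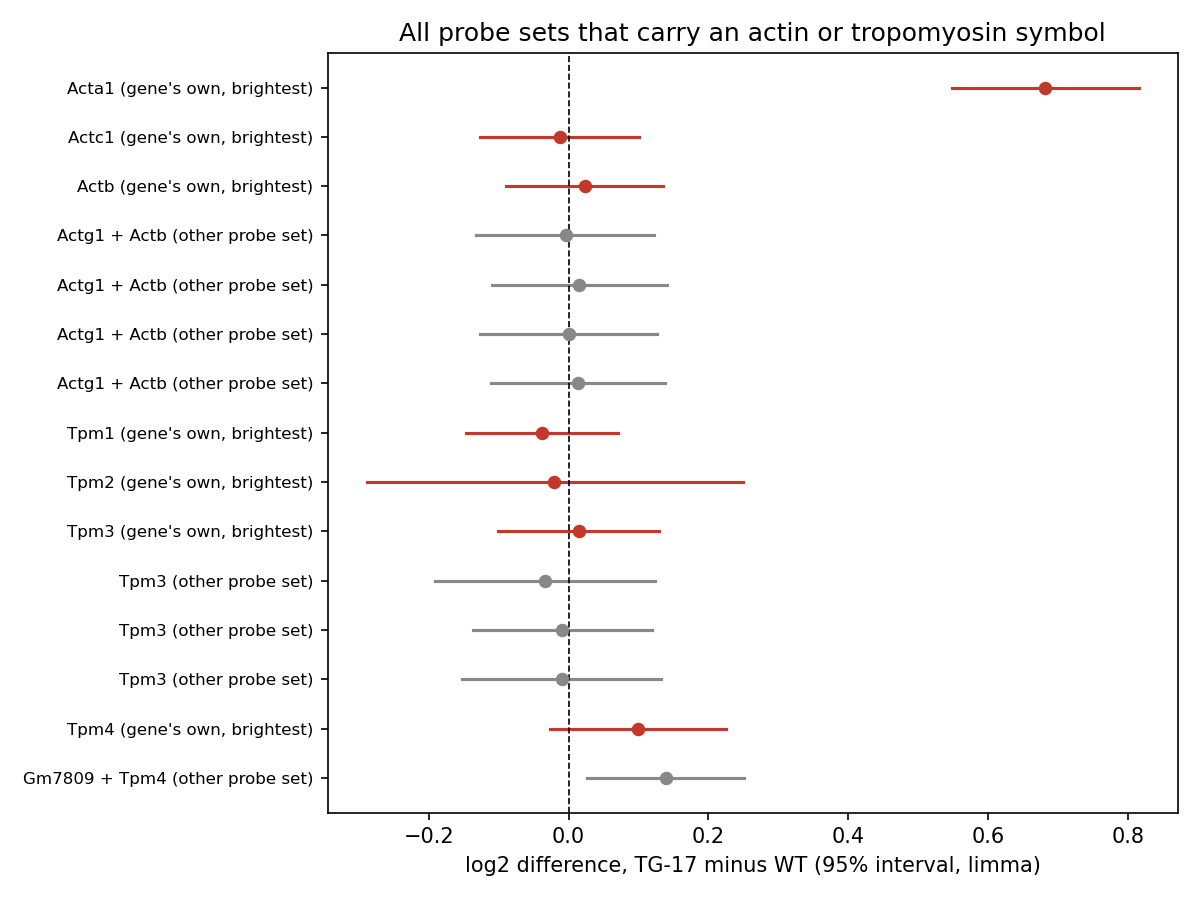
Log2 difference between TG-17 and WT (points) with its 95% interval from limma (lines) for the 15 probe sets that carry a symbol of the families, alone (10) or with another gene (5). Red marks the probe set that represents a gene, grey the others. The interval of Acta1, 0.549 to 0.816, lies apart from all others, which end at or below 0.251.

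Over the 6 genes other than Acta1 the log2 differences ran from -0.038 to 0.099 and their 95% intervals from -0.289 to 0.249, so that changes beyond 0.818-fold and 1.19-fold lay outside the intervals of all 6. Within each mouse, Tpm2 minus Tpm1 was -5.97, -5.96 and -5.97 in TG-17 and -5.83, -6.23 and -5.88 in WT, and these overlapped (shift 0.018, two-sided exact permutation p = 1). Tpm4 minus Tpm3 was -0.76, -0.85 and -0.80 in TG-17 and -0.89, -0.88 and -0.89 in WT. This difference was higher in all TG-17 mice, but the shift of 0.084, or 1.06-fold, was small (two-sided exact permutation p = 0.10, adjusted p = 0.15).

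**Figure D3:**
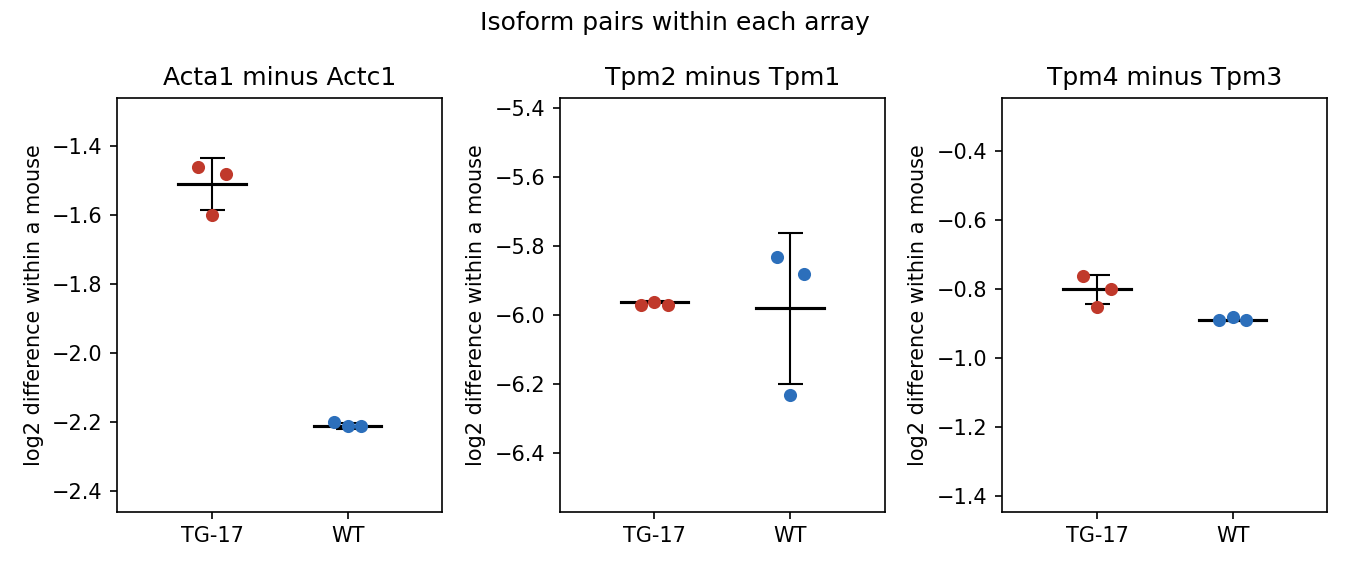
Log2 difference between 2 genes read on the same array, for Acta1 minus Actc1, Tpm2 minus Tpm1 and Tpm4 minus Tpm3, in 3 TG-17 (red, left) and 3 WT (blue, right) mice. Points are mice, bars are means and whiskers 1 SD. The shift between the groups is 0.70 for the first pair, 0.018 for the second and 0.084 for the third.

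The partners of these genes on the thin filament showed no call. Of 26 such genes, which include the troponins, nebulin relatives, leiomodins and tropomodulins, none passed at B above 0, where 0.341% of all genes did. By limma's p before adjustment, 6 of the 26 were below 0.05, all of them higher in TG-17, beside 15.4% of all genes in either direction. This cut-off is called the unadjusted one in what follows. The median log2 difference was 0.057, beside -0.018 over all genes. The smallest p was that of Smpx, a small muscle protein of the costamere, at 11.98 ± 0.085 in TG-17 and 11.66 ± 0.17 in WT (SD, n = 3 each), a difference of 0.31 (standard error 0.098). Fhod3, a formin needed for thin filament assembly, differed by 0.13 (standard error 0.048) and Capza2, a subunit of the protein that caps the barbed end of actin, by 0.14 (standard error 0.050).

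Of 40 genes of actin turnover none passed at B above 0. At the unadjusted cut-off 8 were higher and 1 lower, beside 15.4% of all genes in either direction. The median was 0.055, beside -0.018 over all genes. The lower one was Dstn, destrin, a protein that severs actin filaments and was the member of the list with the smallest p. It read 10.26, 10.19 and 10.15 in TG-17 mice and 10.45, 10.50 and 10.55 in WT mice, a difference of -0.30 (standard error 0.057, B of -0.73, adjusted p = 0.224 from limma). The formin gene Daam1 differed by 0.25 (standard error 0.072) and Arpc1a, a subunit of the Arp2/3 complex that branches actin, by 0.17 (standard error 0.052).

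Of 11 genes around Srf and myocardin, which drive transcription of muscle actin genes, none passed at B above 0. At the unadjusted cut-off 4 were higher and none lower, beside 15.4% of all genes in either direction. The median was 0.10, beside -0.018 over all genes. Myocd, myocardin, a coactivator of Srf, read 10.07, 10.12 and 10.02 in TG-17 mice and 9.65, 9.50 and 9.85 in WT mice. The groups did not overlap and differed by 0.41 (standard error 0.095, adjusted p = 0.227 from limma). Abra, an actin-binding activator of Srf signaling, differed by 0.45 (standard error 0.14), and Ablim1, an actin-binding LIM protein, by 0.19 (standard error 0.054).

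Of 8 other actin genes, which include smooth muscle actins and actin-related proteins, none passed at B above 0. At the unadjusted cut-off 1 was higher and 1 lower, beside 15.4% of all genes in either direction (median -0.089). The lower one was Acta2, smooth muscle alpha-actin, which read 12.33, 12.21 and 12.19 in TG-17 mice and 12.35, 12.49 and 12.54 in WT mice. It differed by -0.22 (standard error 0.073, adjusted p = 0.275 from limma), the opposite direction to Acta1. Actr1a, a subunit of dynactin, differed by 0.14 (standard error 0.056) and Actbl2 by 0.17 (standard error 0.070).

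**Figure D4:**
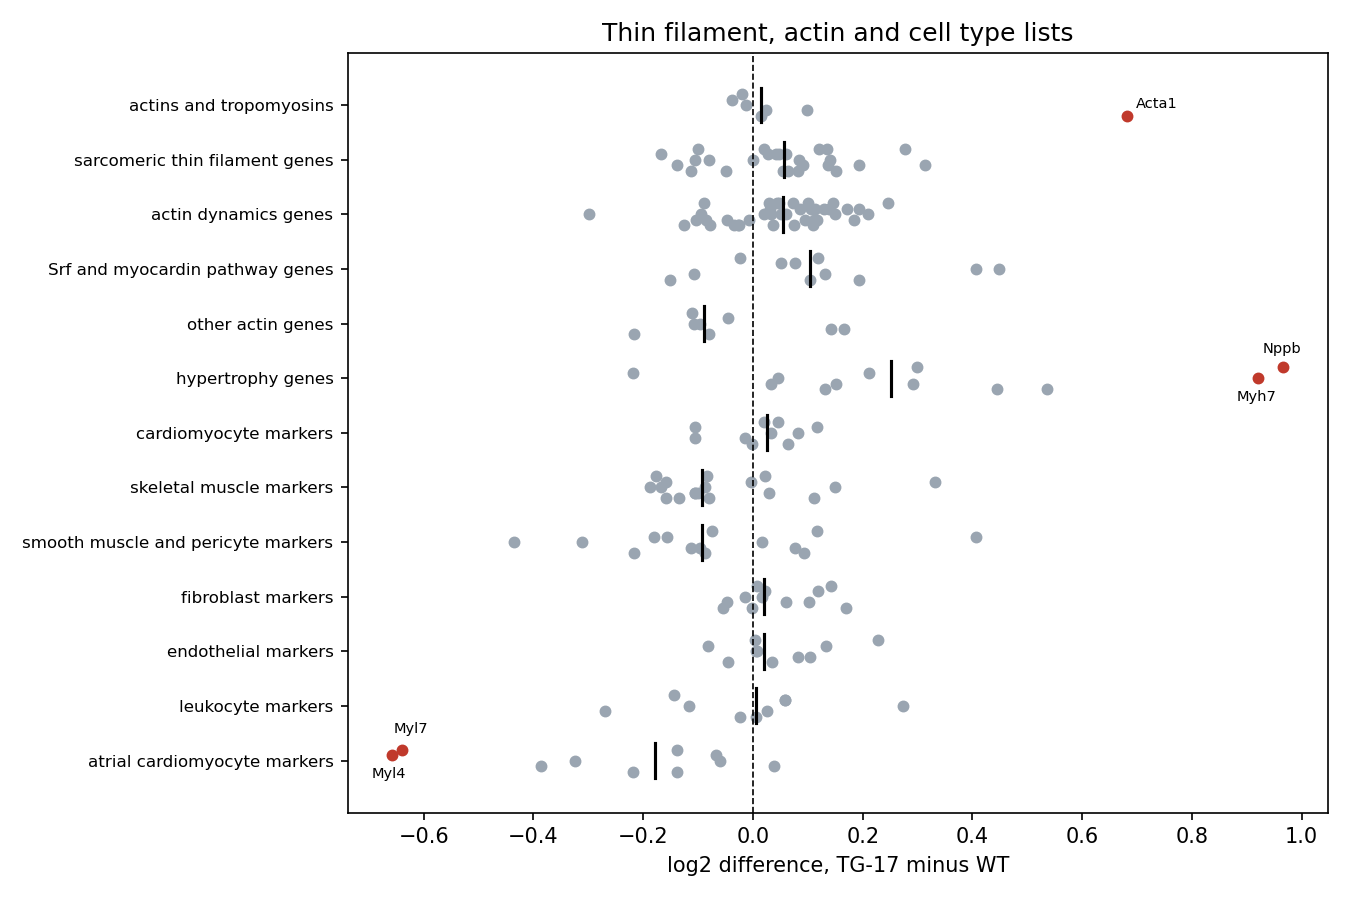
Log2 difference between TG-17 and WT for each measured gene (points) of the actin and tropomyosin genes and of 12 other gene lists, with the median of each list (black bar). Red points with names are genes at B above 0, grey points the others. Acta1 stands at 0.68, while the other actins and tropomyosins lie between -0.038 and 0.099.

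Of 12 hypertrophy genes, a list that holds genes the study names from these same arrays, 2 rose at B above 0, where 0.341% of all genes passed, and 10 gave no call in either direction (median 0.25). At the unadjusted cut-off 8 of the 12 were higher and 1 was lower, beside 15.4% of all genes. Those that rose were Myh7, the slow myosin heavy chain, by 0.92 (standard error 0.12) and Nppb, B-type natriuretic peptide, by 0.97 (standard error 0.14), calls that leaving out a single mouse could end, since without TG-17 replicate 2 or 3 the count over all lists beside Acta1 was 0. Ankrd1, a titin-associated ankyrin repeat protein, differed by 0.44 with a standard error of 0.076, which fell just short (B of -0.20). The lower one was Nppa, the atrial natriuretic peptide, named here after its values were seen, which read 10.98, 11.06 and 11.11 in TG-17 mice and 11.44, 11.16 and 11.20 in WT mice. All TG-17 mice lay below all WT mice, with a difference of -0.22 (standard error 0.087, adjusted p = 0.314 from limma).

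Markers of the cell types that the tissue can hold were read beside these results. The 10 cardiomyocyte markers had none at B above 0 and none at the unadjusted cut-off, and their summed linear values were 118415 to 120180 in TG-17 and 118038 to 119184 in WT, with overlap. Their mean log2 levels over all mice were 12.81 to 14.12, and most of them are shared by ventricle and atrium. The smallest p were those of Myl2 (0.12, standard error 0.050), Tnnt2 (-0.11, standard error 0.047) and Ryr2 (-0.10, standard error 0.048), each a log2 difference. Acta1 is also a gene of skeletal muscle. Of 18 skeletal muscle markers none passed at B above 0, and 13 had lower and 5 higher means in TG-17. Of these, Tnni2, Tnnt3 and Tnnc2 also stand in the thin filament list. At the unadjusted cut-off 1 of the 18 was higher and 3 were lower, beside 15.4% of all genes in either direction. Myh4, a fast skeletal myosin, read 5.16, 5.21 and 5.15 in TG-17 mice and 5.41, 5.40 and 5.24 in WT mice, below the lower quartile of every array (5.51 to 5.57). Myod1, the muscle master regulator, differed by -0.19 (standard error 0.061). The median level of the 18 markers over all mice, 6.56, was below the median of every array. The summed level of 17 of the markers, all but Casq1, was 1807 to 1885 in TG-17 and 1900 to 1956 in WT. This sum was lower in every TG-17 mouse. The array medians were also lower in TG-17 (6.89 to 6.91, against 6.93 to 6.95 in WT), and their part in this gap was not tested. The remaining marker, Casq1, calsequestrin of fast muscle, was set apart as the brightest of the 18, a split that was not planned. It read 12.22, 12.01 and 12.20 in TG-17 mice and 11.75, 11.73 and 11.95 in WT mice (difference 0.33, standard error 0.089, adjusted p = 0.238 from limma). With it the sum of all 18 was 5978 to 6658 in TG-17 and 5355 to 5857 in WT. That sum was higher in every TG-17 mouse, so the direction of the sum turned on Casq1.

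Of 14 smooth muscle and pericyte markers, of which Acta2, Actg2, Myocd and Lmod1 also stand in lists above, none passed at B above 0. At the unadjusted cut-off 1 was higher and 3 lower, beside 15.4% of all genes in either direction. Myh11, the smooth muscle myosin, differed by -0.31 (standard error 0.070). Their summed level was 19184 to 19655 in TG-17 and 19381 to 20331 in WT, with overlap. The 12 fibroblast markers had none at either cut-off, with Lum (0.17, standard error 0.074), Dcn (0.12, standard error 0.055) and Tcf21 (0.14, standard error 0.070) at the smallest p, and sums of 34789 to 35737 in TG-17 and 33689 to 34957 in WT. Of 10 endothelial markers none passed at B above 0 and Flt1 alone was higher at the unadjusted cut-off (0.23, standard error 0.072), followed by Esam (0.13, standard error 0.064) and Pecam1 (0.10, standard error 0.056), with sums of 13357 to 13434 in TG-17 and 12889 to 13261 in WT. Of 9 leukocyte markers none passed at B above 0, where Lyz2 was higher (0.27, standard error 0.050) and Cd3e lower (-0.27, standard error 0.049) at the unadjusted cut-off, with Fcer1g next (-0.14, standard error 0.094), and their sums were 2899 to 2932 in TG-17 and 2654 to 2898 in WT. Of 10 atrial cardiomyocyte markers 2 fell at B above 0, where 0.341% of all genes passed in either direction, and 8 gave no call. At the unadjusted cut-off 5 of the 10 were lower and none was higher, beside 15.4% of all genes in either direction, and 9 had lower means in TG-17. Both calls were myosin light chains of the atrium, Myl4 (-0.66, standard error 0.10) and Myl7 (-0.64, standard error 0.097), and Dkk3 followed (-0.39, standard error 0.072), and the calls of both light chains were likewise lost without TG-17 replicate 2 or 3. The atrial sum was 4665 to 4748 in TG-17 and 5348 to 6222 in WT, lower in every TG-17 mouse. Its brightest gene was Nppa, which also stands in the hypertrophy list above, so the 2 lists are not separate there. The leukocyte sums of the groups nearly touched, at 2899 against 2898, and Lyz2 was the brightest marker of that list. The median log2 difference of the leukocyte markers was 0.0062, with 5 pointing upward and 4 downward. For the endothelial markers it was 0.021, with 8 pointing upward and 2 downward. How far these sums rest on single genes was not tested. The part of the lower atrial, higher endothelial and higher leukocyte sums in the result for Acta1 was not tested either. Nor was that of the skeletal muscle sum, which with Casq1 was higher in every TG-17 mouse.

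The genes whose values followed Acta1 most closely were sought among 9821 genes with an SD of at least 0.1 over the 6 arrays. Pearson's r over the 6 mice was 0.993 for Clu, a secreted chaperone, 0.991 for Thoc5, a subunit of an mRNA export complex, 0.991 for Rtn4, a reticulon of the endoplasmic reticulum, 0.990 for Alcam, a cell adhesion molecule, and 0.989 for Mir499. These values describe 6 arrays in which the groups differ, and most of each r comes from the distance between the groups. Clu read 10.86, 10.86 and 10.88 in TG-17 mice and 10.57, 10.58 and 10.56 in WT mice, a rise of 0.30 (standard error 0.045, B of 0.31), and Alcam rose by 0.92 (standard error 0.056). Thoc5 differed by 0.22 (standard error 0.045) and Rtn4 by 0.18 (standard error 0.047), and neither had B above 0.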

How the data were processed

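RNA of ventricles from 3 TG-17 and 3 WT mice was read by the authors on 1 array per mouse, and the log2 values deposited by the authors were made with RMA (background correction, quantile normalization, probe summary), with the version and any filter not given in the sources used here. Of 35556 probe sets 21789 had 1 gene symbol in the platform annotation, with symbols updated through RefSeq (GRCm38.p6, names and chromosomes only), 1621 had several and stayed without a name, and 12146 had no symbol here. All 6 columns were used and 0 left out.

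On all probe sets, without a filter, limma 3.58.1 in R 4.3.3 set TG-17 against WT (lmFit, eBayes without trend, assumed share 0.01), and p-values were adjusted by Benjamini-Hochberg over all of them. The mice are separate animals. Standard errors, intervals and p-values from limma are moderated. They combine a gene's own spread between mice with a variance shared over all probe sets. The median of an array was 6.89 to 6.91 in TG-17 and 6.93 to 6.95 in WT. Pearson's r across probe sets, which are not replicates, was 0.990 to 0.992 between the groups. Precision is limited by the number of arrays, which hold no counts.

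The genes, lists and tests were chosen with earlier results of these data known. The text names all members, the 3 genes with the smallest p of each other list, and the 5 genes most like a called member. The lists were thin filament, actin turnover, Srf and myocardin, other actin and hypertrophy genes and markers of cardiomyocytes, skeletal muscle, smooth muscle, fibroblasts, endothelium, leukocytes and atrium. Where several probe sets carried a gene, the brightest stood for it. Of the listed genes 10 were not found with a probe set of their own, Actg1 among them, so that the planned pair Actb minus Actg1 could not be formed. Alternatives were filters on dim or unlisted probe sets, centring, leaving out each mouse, array weights, robust moderation, a block for the replicate number, a second quantile normalization, an intensity trend, no moderation, a share of 0.05, and other probe sets of a gene. The limma step was run on simulated data of independent normal values, which is a check of the code and not of the calls.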

Additional observations from a re-analysis of the deposited data

How the results depend on the processing

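The rise of Acta1 kept its direction under all 17 alternatives, at 0.63 to 0.73 on the log2 scale, and stayed at B above 0 in the 15 that use B. With 1 mouse left out it was 0.66 to 0.72. Acta1 (0.68) passed an adjusted p under 0.05 from limma when only brighter or only listed probe sets were tested or with an intensity trend (adjusted p = 0.00829, 0.0150 and 0.00695). It did not in the main setting (0.0785), without moderation (0.114), with centring (0.0751), a second quantile normalization (0.111), robust moderation (0.0821), array weights (0.0819) or the replicate block (0.318), or with any 1 mouse left out (0.222 to 0.401). By that rule 0 members passed in the main setting and without moderation. Its adjusted p from limma was 0.00695 to 0.401 over all alternatives. With the replicate number as a replicate block its B was 0.76, and the count over all probe sets was 69. Deviations from the group means of same-numbered mice correlated at -0.00044 to 0.057, so the numbers were not taken as pairs, and the block changed no call of a member.

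The 6 other genes passed under no alternative. Differences near 0 turned sign, with the cause not tested. After centring each array on its median, which put the median of all probe sets at 0.037, Actc1 was 0.038, Tpm1 0.013 and Tpm2 0.031. After a second quantile normalization Actb was -0.019, Tpm2 0.0077 and Tpm3 -0.071. Tpm3 was -0.0095 as the mean of its probe sets and -0.034, -0.0087 and -0.0098 with each other probe set. With 1 mouse left out Actc1 was -0.024 to 0.0020 (above 0 without WT replicate 3), Tpm2 -0.15 to 0.055 (above 0 without WT replicate 1 or 3), Tpm3 -0.00097 to 0.031 (below 0 without WT replicate 1) and the Tpm2 minus Tpm1 shift -0.11 to 0.092 (below 0 without WT replicate 2). The Acta1 minus Actc1 shift stayed at 0.67 to 0.74. Tpm4 stayed above 0, from 0.027 after a second quantile normalization to 0.15 with centring.

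Over all probe sets 130 passed B above 0. The count was 287 with an intensity trend, 714 with a share of 0.05, 29 to 112 with 1 mouse left out (29 without TG-17 replicate 2, 37 without WT replicate 2, 51 without TG-17 replicate 3, 56 without WT replicate 1), 2 at an adjusted p under 0.05 and 0 by that rule without moderation. Of 167 list genes outside the members 4 passed, with 8 among brighter and 8 among listed probe sets, 9 with a trend, 12 with a share of 0.05, 2 with the replicate block, and 0 at an adjusted p under 0.05 with or without moderation. With 1 mouse left out 0 to 3 of the 167 passed, 0 without TG-17 replicate 2 or 3, 1 without TG-17 replicate 1, 2 without WT replicate 1 or 3 and 3 without WT replicate 2, so that Myh7, Nppb, Myl4 and Myl7 were not called without TG-17 replicate 2 or 3. Compression of bright signals and cross-hybridisation between actin genes were not tested.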
